A study of Homo sapiens and Mus musculus with 6 samples.

Results

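The genes described here are 10 components of Nodal, BMP and FGF signalling, namely the ligands *Nodal*, *Bmp4*, *Fgf4* and *Fgf5*, the co-receptor *Tdgf1*, the secreted inhibitors *Lefty1* and *Lefty2*, and the targets *Id1*, *Id2* and *Id3*. They were chosen by name, and every call that carried one of the names at its bait or at its other end was kept. In mouse embryonic stem cells (mESCs) 53 of 101841 calls were kept, and 9 of the 10 genes had at least 1 call. The mESC list names 17014 genes, each of them with a call. In the human line GM12878 the same symbols gave 91 of 92929 calls, again for 9 of 10 genes, and that list names 21999 genes with a call. Promoters without a call are not in the lists, so no share over all promoters can be set beside the 9 of 10.

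Promoter Capture Hi-C (CHi-C) measures how often a *Hin*dIII fragment that carries a promoter, the bait, is ligated to another fragment, the other end. The mESCs were the untreated J1 line of strain 129S4/SvJae, grown in serum on irradiated embryonic fibroblast feeders that were later removed by passaging, and were profiled in 2 biological replicates. GM12878 is an untreated lymphoblastoid line of B-lymphocyte origin, grown in suspension and profiled in 3 biological replicates, and 1 Hi-C library without capture was made from mESCs. No genotype or agent differed within a cell type, and each cell type is 1 line. The replicates of a cell type were called jointly, so the spread between replicates cannot be computed and no difference below has a replicate test. A call is a pair of fragments with a CHiCAGO score, which grows as the weighted p-value of the read count falls, of at least 5. The listed read count combines the replicates and is rounded, and total reads per library are not in the call lists, so the precision is given by the number of calls. By the study's own account GM12878 was sequenced more deeply in all than the mESCs, which bears on every comparison of call numbers between them and was not corrected for here. The lists hold no expression values, so the cell types could not be checked against marker genes. GM12878 and the mESCs differ in species as well as in cell type, and these cannot be told apart.

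Nodal is a ligand of the TGF-beta family that signals through activin receptors and SMAD2/SMAD3 with the help of the co-receptor encoded by *Tdgf1* (Cripto), and the Lefty proteins are its secreted antagonists and are themselves induced by it. BMP4 signals through SMAD1/SMAD5 and induces the *Id* genes, whose helix-loop-helix proteins lack a DNA-binding domain and hold other factors inactive; in mESCs grown with serum this pathway is known to help block differentiation. FGF4 is secreted by mESCs and prepares them for differentiation through ERK, whereas *Fgf5* is low in naive cells and marks the transition to the epiblast.

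The position of the *Hin*dIII sites decides which promoter sequence a bait carries, so the promoter windows of the genes with a site at the start are shown first, from 250 bases before to 30 bases from the annotated start, with AAGCTT, the *Hin*dIII site, in capitals. The sequences were read from the mm9 reference, and positions are counted from the first transcribed base as +1, with negative positions before it.

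Nodal (mm9 chr10:60880470-60880749, plus strand): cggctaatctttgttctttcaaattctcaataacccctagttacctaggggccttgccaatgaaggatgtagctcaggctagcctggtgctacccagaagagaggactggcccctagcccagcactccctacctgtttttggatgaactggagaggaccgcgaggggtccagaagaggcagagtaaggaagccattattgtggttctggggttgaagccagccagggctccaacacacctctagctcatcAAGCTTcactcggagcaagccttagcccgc

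Fgf5 (mm9 chr5:98682953-98683232, plus strand): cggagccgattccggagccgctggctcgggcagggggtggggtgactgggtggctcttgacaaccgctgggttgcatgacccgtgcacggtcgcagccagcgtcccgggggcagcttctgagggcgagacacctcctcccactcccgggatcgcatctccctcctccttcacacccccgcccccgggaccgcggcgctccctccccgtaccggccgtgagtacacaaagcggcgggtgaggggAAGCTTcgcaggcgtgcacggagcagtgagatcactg

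In *Nodal* the site begins at +1, and the enzyme cuts after its first base, so the *Nodal* bait, chr10:60878205-60880720, ended on the first transcribed base and carried the upstream side of the promoter. The fragments on both sides of it were at no end of any call. In *Fgf5* the site begins at -7, so the bait, chr5:98683197-98686995, began 6 bases before the start and carried the transcribed side. The upstream neighbour of the *Fgf5* bait, 9134 bp long, held nearly all of the window shown and was the other end of 1 call, from a bait of none of the 10 genes. Of 22220 promoter windows of the same length in the mouse annotation, 6.32% held AAGCTT.

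*Lefty1* and *Lefty2* are a tandem pair, and their windows are shown because the pair was itself a call and the fragments share sequence in part. The capitals mark TATAAA, the TATA box letters.

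Lefty1 (mm9 chr1:182864903-182865182, plus strand): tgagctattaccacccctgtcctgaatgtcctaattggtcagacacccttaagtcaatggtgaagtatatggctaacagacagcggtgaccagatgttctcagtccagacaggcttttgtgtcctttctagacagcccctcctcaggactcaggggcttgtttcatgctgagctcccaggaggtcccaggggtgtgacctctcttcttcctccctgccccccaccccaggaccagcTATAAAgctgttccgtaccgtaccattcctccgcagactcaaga

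Lefty2 (mm9 chr1:182822989-182823268, plus strand): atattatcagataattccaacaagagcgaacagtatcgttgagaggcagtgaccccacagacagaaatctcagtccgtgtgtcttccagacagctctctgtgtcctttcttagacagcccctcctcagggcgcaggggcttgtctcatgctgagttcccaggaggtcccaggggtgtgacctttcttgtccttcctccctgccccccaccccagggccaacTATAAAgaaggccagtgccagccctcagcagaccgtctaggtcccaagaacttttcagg

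TATAAA begins at -14 in *Lefty1* and at -29 in *Lefty2*, and also at -29 in *Id1*, while 12.8% of all windows held it on either strand. The longest alignment between the *Lefty1* and *Lefty2* fragments ran over 777 bp at 90.3% identity and crossed a further annotated start of each gene. Another, over 593 bp at 76.6%, crossed the starts of the 2 windows shown. Of the other letters searched on both strands, GGCGCC, a SMAD1/SMAD5-type element, was in the windows of *Id2*, *Id3* and *Fgf4* and in 13.7% of all windows. The FOXH1 letters AATCCACA, the SMAD palindrome GTCTAGAC and the octamer ATTTGCAT were in none of the 10 windows, and in 0.752%, 0.171% and 1.72% of all windows respectively. None of these 6 searched motifs overlapped another in the 10 windows. The *Fgf4* and *Fgf5* windows were rich in G and C, at 71.4% and 70.0%, against a median of 55.4% over all windows.

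All 53 mESC calls of the 10 genes were *cis*-chromosomal. *Lefty1* and *Fgf5* had 15 calls each, *Lefty2* and *Id1* had 6 each, *Tdgf1* 4, *Nodal* 3, *Id2* and *Fgf4* 2 each, and *Bmp4* 1, against a median of 4 calls per named gene (quartiles 2 and 10). The calls spanned a median of 79.5 kb (95% interval of the median 69.8 to 122), shorter than the 139 kb of all *cis*-chromosomal mESC calls, and their median read count of 15 and median score of 6.33 lay beside 13 and 6.62 over all calls. A score of at least 10 was reached by 12 of the 53 calls (22.6%), 16.9% over all calls. The 53 calls joined 47 distinct pairs of fragments, because 6 of the 29 pairs of 2 baits were called from both ends.

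In mESCs 35 of the 53 calls were bait-to-bait (66.0%, Wilson 95% interval 52.6 to 77.3), against 36.3% of all calls, but the share depended on 2 genes. Without *Fgf5* it was 28 of 38 (73.7%, 58.0 to 85.0), and without *Lefty1*, whose partners were all baited, it was 20 of 38 (52.6%, 37.3 to 67.5). In GM12878 the share went the other way, 15 of 91 calls (16.5%, 10.3 to 25.4) against 29.4% of all calls. These intervals cover counting error only, and neighbouring calls of a bait are not independent. The 18 unbaited partners in mESCs lay between genes in 10 cases, overlapped an exon in 5, a transcription start in 2 and only an intron in 1.

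**Figure D1:**
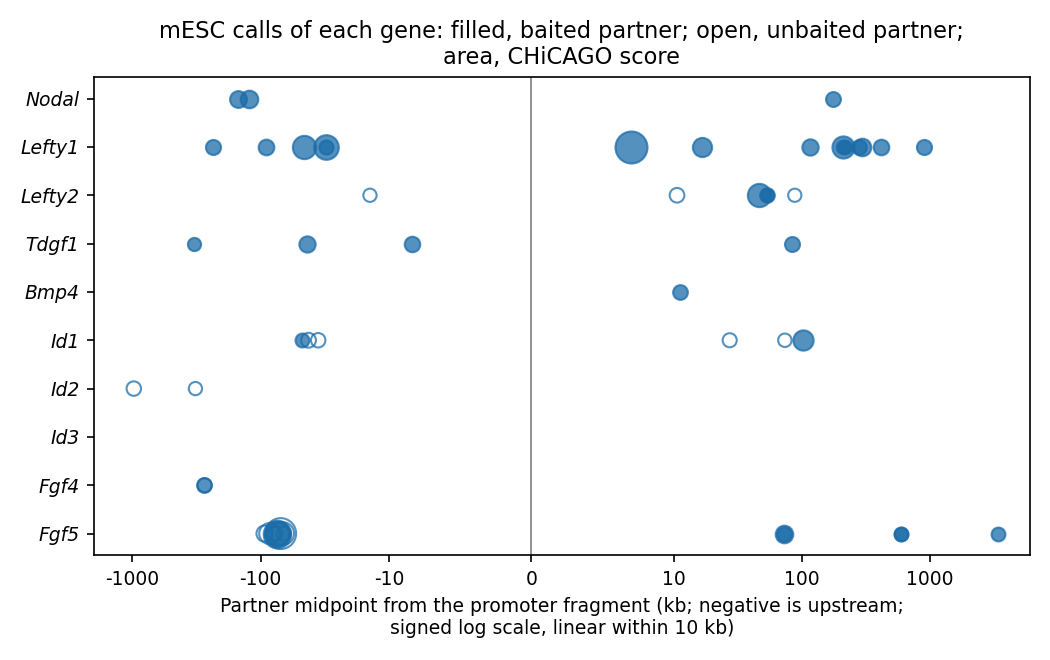
Every mESC call of the 10 genes by the distance of the partner's midpoint from the promoter fragment, in kb on a signed log scale that is linear within 10 kb, with upstream negative. Filled points are baited partners, open points unbaited ones, and the area grows with the CHiCAGO score. *Lefty1* has 15 calls with filled points alone, the *Fgf5* calls crowd between 66.0 and 93.3 kb upstream, and *Id3* has none.

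Among the ligands, *Nodal* contacted 3 promoters and nothing else. *Prf1*, which encodes the pore-forming protein perforin, lay 122 kb upstream with 13 reads and a score of 8.95. *Adamts14*, a procollagen-processing protease gene, lay 151 kb upstream with 10 reads and a score of 8.18. *Npffr1*, a neuropeptide receptor gene, lay 174 kb downstream with 9 reads and a score of 6.41. The 3 calls thus reached both sides of *Nodal* over similar distances and on similar reads.

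*Bmp4* had a single call, at *Gm15217* 11.2 kb downstream, on 53 reads with a score of 6.28. Among the pairs of the 10 genes only *Lefty1*–*Tmem63a* had more reads, but the distance was short and the score lay just below the median of 6.33.

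*Fgf4* had 2 calls, both upstream and close together. The promoter of *Fadd*, the adaptor of death receptors, lay 278 kb away (11 reads, score 6.26), and an unbaited fragment on an exon of *Ano1*, a chloride channel gene, lay 274 kb away (7 reads, score 5.76). The bait of *Ano1* itself, with 3 contacted fragments, shared both of these with *Fgf4*, the closest match to it among baits (Jaccard index 0.667).

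*Fgf5* stood out by one upstream block. Of the 10 adjacent *Hin*dIII fragments between chr5:98586786-98619656, which together cover 32.9 kb, 9 were called from *Fgf5*, and the exception was 188 bp long. Read counts along the block, from the far to the near end, were 17, 25, 15, 16, 52, 31, 47, 31 and 17, with the peak in the middle rather than at the end nearest to *Fgf5*. The fragment with 52 reads, 75.2 kb away, is the bait of *Prdm8*, a PR-domain transcription factor gene, and the pair scored 21.92 from *Fgf5* and 16.13 from *Prdm8*. The fragment with 47 reads, 69.8 kb away at chr5:98613760-98616853, had the highest score of the block, 27.47, and overlapped *Prdm8* and the start of *A730035I17Rik*.

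Downstream, *Fgf5* contacted *1700007G11Rik* at 73.0 kb with 23 reads, and *Bmp3*, a gene of the BMP family, at 597 kb with 8 reads. Both pairs were called from both ends, the first with scores of 6.06 and 8.94 and the second with 5.65 and 5.25. The longest call of the 10 genes joined *Fgf5* to *Nkx6-1*, a homeobox gene, over 3406 kb on 5 reads (score 5.57). *Bmp3* was also the bait most like *Fgf5* in its contacts, with 6 fragments shared out of 12 for *Fgf5* and 10 for *Bmp3* (Jaccard index 0.375).

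**Figure D2:**
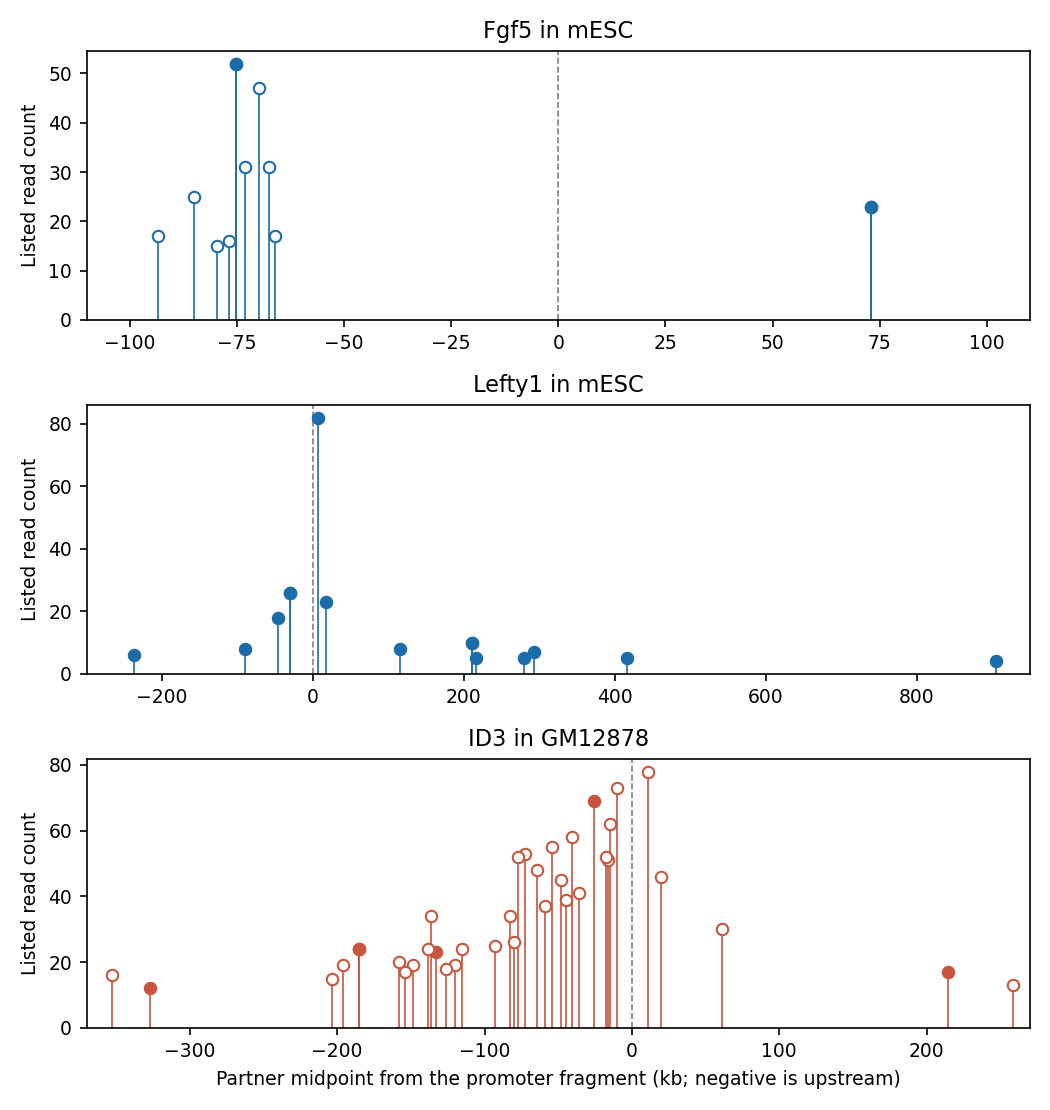
Listed read count (y axis) against the distance of the partner from the promoter fragment in kb (x axis, upstream negative) for the nearer partners of *Fgf5* and for *Lefty1* in mESCs, and for *ID3* in GM12878. Filled points are baited partners and open points unbaited ones. The upstream *Fgf5* block peaks at 52 reads, *Lefty1* peaks at 82 reads on its nearest partner, and the *ID3* calls fall off over a long upstream stretch.

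The co-receptor gene *Tdgf1* had 4 calls, all at promoters. They included *Lrrc2* at 8.36 kb (23 reads, score 6.97) and *Rtp3* at 43.7 kb (10 reads, score 7.65), both upstream. The protease gene *Prss50* lay 83.4 kb downstream (7 reads, score 6.50). The highest score was thus not on the nearest partner, and 2 of its 4 contacted fragments were shared with the bait of *Trank1* (Jaccard index 0.4).

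Of the inhibitors, *Lefty1* had the most dispersed calls. All 13 of its calls as a bait, and its 2 calls as an other end, were at baited promoters. Among 3068 mESC baits with at least 10 calls, 177 (5.77%) had no unbaited other end, a count made after the *Lefty1* values had been seen. The strongest call of all 10 genes joined *Lefty1* to *Tmem63a*, an ion channel gene 7.03 kb downstream, on 82 reads with a score of 29.54.

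*Lefty1* contacted *Lefty2* 46.2 kb upstream on 18 reads, with a score of 15.64 from *Lefty1*, and the pair was not called from *Lefty2*. The part of the sequence similarity of the 2 genes in this call was not tested. *2210411M09Rik* at 16.8 kb (23 reads, score 10.66) and *Nvl* at 210 kb (10 reads, scores of 14.14 and 5.49 from its 2 ends) also scored above 10. Upstream, *BC031781* (90.7 kb) and *Mixl1*, a homeobox gene of the mesendoderm and a known Nodal target (237 kb), had 8 and 6 reads. Downstream, *9130409I23Rik*, *Cnih4*, *Wdr26*, *A430110L20Rik* and *Cnih3*, 116 to 416 kb away, had between 5 and 8 reads. The farthest, *Lbr*, which encodes the lamin B receptor, lay 906 kb away and had 4 reads (score 6.61).

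*Lefty2* reached no farther than 88.1 kb. Besides *Lefty1*, it contacted *Tmem63a* at 53.2 kb on 21 reads, with scores of 6.14 and 5.09 from the 2 ends. Its 3 other partners were unbaited, at 10.6 kb downstream (37 reads, score 6.20), 14.0 kb upstream (27 reads, score 5.06) and 88.1 kb downstream on exons of *Ephx1* and *Tmem63a* (10 reads, score 5.04). *Tmem63a* was the one fragment contacted by both inhibitor genes, 1 of 13 partner fragments of *Lefty1* (7.69%) and 1 of 5 of *Lefty2* (20.0%). By contacted fragments *Lefty1* was most like *Tmem63a* (4 shared, Jaccard index 0.174) and *Lefty2* most like *2210411M09Rik* (3 shared, 0.333).

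Among the targets, *Id1* had 6 calls within 102 kb on both sides. *Bcl2l1*, the gene of the survival factor BCL-XL, lay 102 kb downstream and was called from the *Bcl2l1* bait alone, on 10 reads with a score of 11.86. A run of 3 adjacent fragments upstream, 17.8 kb long, held *Mcts2* (47.5 kb, 21 reads, score 5.61) and 2 unbaited fragments of *H13*, the signal peptide peptidase gene (42.3 and 35.6 kb, 16 and 17 reads). The last 2 calls were unbaited fragments downstream, on an exon of *Cox4i2* (27.4 kb, 19 reads, score 5.70) and within an intron of *Bcl2l1* (73.7 kb, 11 reads, score 5.22). All 3 fragments contacted by *Cox4i2* were also contacted by *Id1* (Jaccard index 0.5). The *Cox4i2* bait is the *Hin*dIII fragment directly downstream of the *Id1* bait, and the part of this adjacency in the sharing was not tested.

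*Id2* had 2 calls, both upstream, unbaited and in gaps between genes. One lay 323 kb away on 6 reads (score 5.05), with *Id2* as the nearest coding start, and the other 977 kb away on 5 reads (score 6.01), with *Rnf144a* as the nearest.

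*Id3* was the one gene without a call, but its name is also absent from the mESC list. The fragment with the starts of the main *Id3* transcripts, chr4:135689415-135700294, is listed under the name of a neighbouring small RNA gene, U6.742, and was at no call's bait. It was the other end of 1 call, from the bait of *Rpl11*, a ribosomal protein gene 85.0 kb away, with 13 reads and a score of 9.96. The next fragment, chr4:135700295-135702714, which holds 1 further annotated start, carries no name and was the other end of a call from *Tceb3*, an elongin gene 130 kb away, with 8 reads and a score of 5.25. A count by position thus gave 2 contacts of *Id3* fragments where the count by name gave 0. These 2 calls were found after the values had been seen and are in none of the counts above.

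The Hi-C library gave a view of the same pairs without capture. The paper describes it as pre-capture Hi-C data of mESCs, so it cannot be taken as independent of the CHi-C libraries. Of the 52 calls under 1 Mb, 10 (19.2%, Wilson 95% interval 10.8 to 31.9) had both fragment midpoints in a pair of 25-kb bins with an FDR under 0.05, against 11.6% of all mESC calls in that range. The share rested on *Fgf5*, with 8 of 14 calls (57.1%, 32.6 to 78.6), while the other genes had 2 of 38 (5.26%, 1.46 to 17.3). Those 2 were calls of *Lefty1*.

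The bins of *Fgf5* and *Prdm8* were joined by 40 read pairs where 10.8 were expected from coverage and distance, 3.69-fold more (FDR 2e-06). The bin of *Lefty1* and *Tmem63a* was joined to that of *Lefty2* by 97 read pairs where 55.9 were expected (1.74-fold, FDR 0.0289). *Lefty2* had 2 more pairs below the threshold, with 40 read pairs against 15.0 expected at a bin with a *Tmem63a* start 56.4 kb away (FDR 0.00749), and 38 against 14.5 at a bin 77.4 kb away (FDR 0.0242). The fragment midpoints of the *Lefty1*–*Lefty2* call fell in a listed pair with 29 read pairs against 12.1 expected but an FDR of 1. No listed bin pair with an FDR under 0.05 started at *Nodal*, *Tdgf1*, *Bmp4*, *Id1*, *Id2*, *Id3* or *Fgf4*, and the long *Fgf5*–*Nkx6-1* call was in none of the 1-Mb pairs.

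The comparison with GM12878 asked whether the same genes were contacted in a cell type of another lineage. At least 2-fold more calls in mESCs were seen for 4 genes, *Fgf5* (15 against 1), *Id1* (6 against 1), *Tdgf1* (4 against 1) and *Bmp4* (1 against 0), and 36.5% of 13961 matched symbols did the same. At least 2-fold more calls in GM12878 were seen for 3 genes, *ID3* (37 against 0), *ID2* (10 against 2) and *LEFTY2* (14 against 6), beside 42.4% of matched symbols. *Nodal* (3 against 2), *Lefty1* (15 against 22) and *Fgf4* (2 against 3) did neither. A count of 0 cannot be told apart from a promoter without a bait or a name. Over the 8 genes with a call in both lists, the counts were 3 (34.6% of 8690 such symbols) and 2 (31.6%). Both shares of the 10 genes lay near their background.

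**Figure D3:**
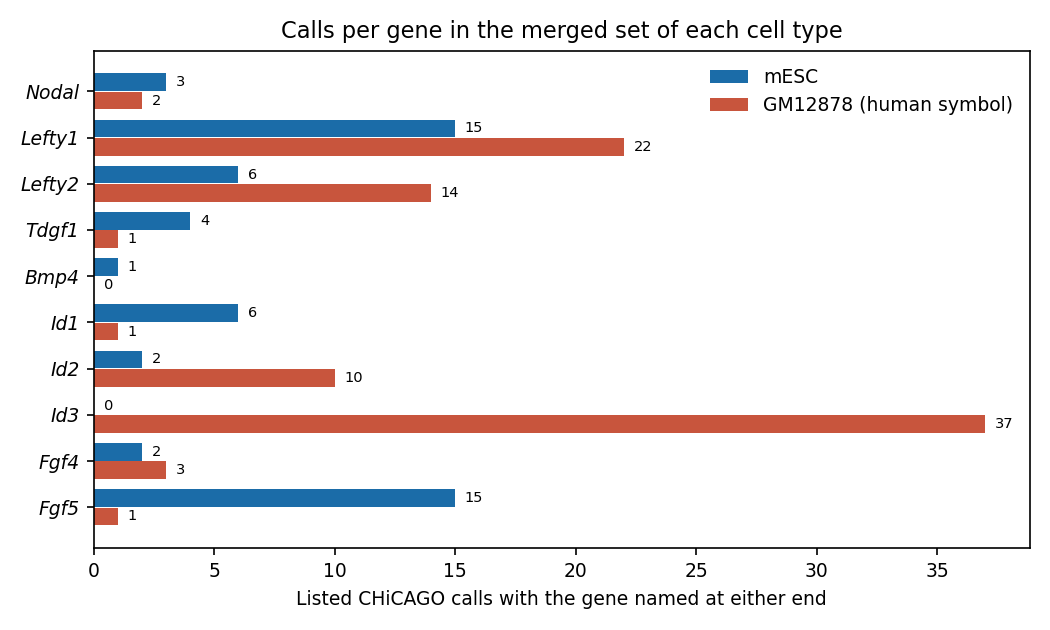
Number of listed calls (x axis) with each gene named at either end, in mESCs and, under the human symbol, in GM12878. Each bar is the single merged set of calls of a cell type, so there is no error bar. *Fgf5* has 15 calls against 1, and *ID3* has 37 in GM12878 and none by name in mESCs.

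Several human names sat on fragments that do not hold the main start of the gene. The fragments named NODAL, LEFTY1 and TDGF1 in GM12878 each held 1 annotated upstream start, whereas the fragments with their other starts were unnamed and in no call, and the fragment with all 9 *BMP4* starts was in no call either. The LEFTY2 fragment, 26114 bp long, also carried other names. In mESCs each of the 9 listed genes was the only name on its fragment. The counts of these genes therefore compare different parts of the loci in the 2 species.

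*ID3* had the most calls of any of the 10 genes in either cell type, above those of 96.8% of named GM12878 genes. Its bait, chr1:23884168-23886661, had 32 of its 37 calls upstream and 31 at unbaited fragments, and the 37 calls held 12 to 78 reads, with the most on a fragment 10.7 kb downstream. The calls included a run of 12 adjacent fragments of 65.8 kb, chr1:23919763-23985531, in which 2 fragments, 72.2 and 77.3 kb upstream, scored 20.72 and 21.44 on 53 and 52 reads. Its promoter partners included *RPL11* at 133 kb (23 reads, score 9.97) and *TCEB3* at 186 kb (24 reads, scores of 12.27 and 5.23), the genes whose baits reached *Id3* fragments in mESCs. *HNRNPR* at 215 kb (17 reads), *MDS2* at 25.9 kb (69 reads) and RN7SL24P;snoU13 at 327 kb (12 reads) completed them.

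The other *ID* genes differed in reach. All 10 *ID2* calls lay upstream at unbaited fragments, 190 to 1252 kb away on 6 to 31 reads, and the 2 mESC calls of *Id2* were also upstream and unbaited. The single *ID1* call, 119 kb downstream on 11 reads (score 5.60), fell on a fragment with a *BCL2L1* start, as the top *Id1* call did in mESCs.

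The fragments named LEFTY1 and LEFTY2 shared more partners than the mouse Lefty baits, which had 13 and 5 partner fragments in all. The named LEFTY1 fragment holds only an upstream start, so differently placed baits are compared. LEFTY1 had 22 calls and LEFTY2 14, and 7 fragments were contacted by both, 31.8% of the LEFTY1 and 50.0% of the LEFTY2 partners. *SRP9* and *EPHX1*, genes of the signal recognition particle and of epoxide hydrolysis, were called with both. The top LEFTY1 call was an unbaited fragment of *ENAH*, an actin regulator gene, 358 kb away (14 reads, score 12.34), and the top LEFTY2 call was *EPHX1* at 124 kb (11 reads, score 12.08). LEFTY1 contacted 2 fragments with starts of *LBR*, the better of them 488 kb away with 10 reads and a score of 9.08. *ACBD3*, 247 kb upstream of LEFTY2, had 9 reads.

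By name, only the contact of *Lefty2* with *Tmem63a* was in both lists, at 53.2 kb in mESCs (21 reads, score 6.14) and 56.4 kb in GM12878 (17 reads, score 6.06). By annotation of the partner fragments, 6 pairs of genes were in both, namely *Lefty1* with *Lbr* and *Tmem63a*, *Lefty2* with *Ephx1* and *Tmem63a*, *Id1* with *Bcl2l1*, and *Fgf4* with *Ano1*. The last 2 lay at 102 and 119 kb, and at 274 and 328 kb. This count by annotation was chosen after the values had been seen, and overlap with a gene is not contact with its promoter.

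The ligand and co-receptor genes had few calls in GM12878. *FGF4* contacted *FGF19*, another FGF ligand, 75.1 kb downstream (13 reads, score 12.13), an unbaited fragment 13.6 kb upstream on 86 reads, and a fragment named ANO1-AS2;RNU6-1175P;RP11-626H12.3 (7 reads, score 7.51). *FGF5* had 1 call, 839 kb downstream within *PRKG2* (6 reads, score 5.14), and none upstream. NODAL contacted a fragment with a *PALD1* start at 98.9 kb and *TBATA* at 339 kb, both upstream. TDGF1 contacted a fragment with a start of *LTF*, the lactoferrin gene, 109 kb upstream (23 reads, score 8.52).

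The other genes of the 3 pathways were counted from a list of 74 receptors, ligands, transducers, inhibitors and targets. In mESCs 57 had a call and in GM12878 54, with a median of 5 and 2 calls per gene, and 6 genes had none in either. For these counts too, and for those of each pathway below, the lists give no share over all promoters. At least 2-fold more calls in mESCs were seen for 35 of the 74 and at least 2-fold more in GM12878 for 19, but *Fgf15* and *Fgf19*, counted once in each direction, are annotated under that symbol in only one of the species. Over the 72 genes annotated in both, the counts were 34 (47.2%) and 18 (25.0%). The 36.5% and 42.4% of matched symbols given above are on another base, because each of those symbols had a call in at least 1 list. The 72 genes include the 6 without a call in either, which lowers both of their shares. These shares have no test, and the list was written with earlier results of these data known.

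Of the 21 Nodal-pathway genes, 14 had a call in mESCs and 13 in GM12878. Those with many mESC calls included *Gdf1*, a co-ligand of Nodal, with 42 against 2 in GM12878, and *Ski*, a SMAD co-repressor gene, with 15 against 4. Of the 25 BMP-pathway genes, 20 and 18 had a call, led by the transcription factor genes *Tbx3* (56 against 11) and *Msx1* (32 against 1) and the ligand gene *Bmp7* (29 against 2). Of the 28 FGF-pathway genes, 23 had a call in each cell type, led by the receptor gene *Fgfr1* (52 against 67), the ligand gene *Fgf8* (33 against 32), and, tied at 20, the adaptor gene *Grb2* (against 7) and the inhibitor gene *Spred1* (against 12). No gene of the list was a partner of the 10 genes in mESCs, and *FGF19* was the only one in GM12878. The list does not hold *Bmp3*, a BMP family gene that was a partner of *Fgf5* in mESCs.

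**Figure D4:**
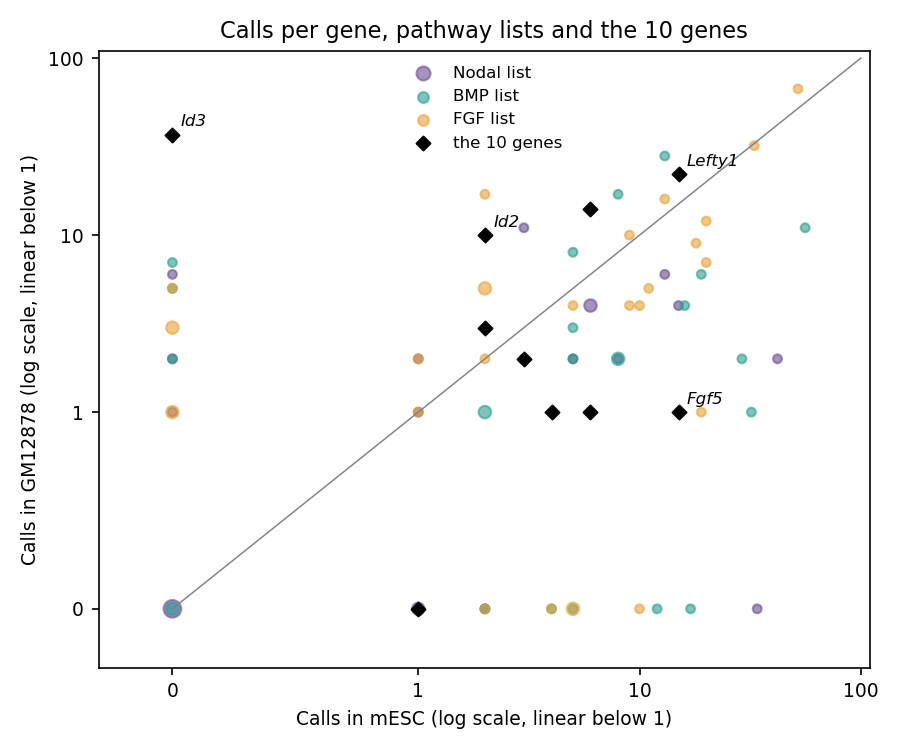
Calls per gene in mESCs (x axis) and GM12878 (y axis), both on log scales that are linear below 1, for the 74 genes of the pathway lists and, as diamonds, the 10 genes described here. The area of a circle grows with the number of genes at that point and the line marks equal counts; 35 list genes have at least 2-fold more calls in mESCs and 19 in GM12878.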

How the data were processed

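The authors mapped read pairs to mm9 or hg19 with HiCUP, with Bowtie 1.1.0 named in the submitters' processing notes, and called both cell types with CHiCAGO on all replicates together. The deposited CHiCAGO score is a transformed, weighted p-value. The listed read count, also deposited by the authors, is weighted over replicates and rounded, and was treated as a score. For Hi-C, the authors used HOMER (4.7 in the same notes), which gave the deposited count of read pairs, the expected read pairs (a signal that the authors deposited beside it) and the FDR, an adjusted p-value deposited by the authors. A further 10 Hi-C columns were not used.

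Calls were read with Python 3.11.15. Names were split at semicolons, bars and commas, and transcript suffixes removed. Distances run between fragment midpoints. Medians have order-statistic and shares Wilson 95% intervals, covering counting error only. A partner was baited if it was a bait of some call or carried a bait's name. Fragments of the 9 mouse and 8 human chromosomes used matched an AAGCTT digest of the reference in all 26539 and 25662 cases. Fragments were aligned with blastn 2.17.0, keeping alignments of at least 500 bp. The counting was tested on simulated data.

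Named genes are the 10 genes, their calls with the highest score, most reads or longest distance, baited partners, the bait sharing the most contacted fragments (at least 2), and the 3 genes of each pathway list with the most mESC calls. Some genes that the rule names are not reported here. A few others were named after their values were seen: the genes annotated on unbaited partners, and the baits that called the *Id3* fragments. The 10 genes and the lists were chosen with earlier results of these data known. Alternatives were a score of at least 10, at least 10 reads, each pair counted once, equal numbers of calls and other Hi-C thresholds.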

Additional observations from a re-analysis of the deposited data

How the results depend on the processing

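Of 69 alternatives for the main counts, shares and medians, 61 stayed within the limits set for a change (1.5 times for a count, the counting interval for a share or median). With a score of at least 10, the calls of the 10 genes fell to 12 in mESCs and 15 in GM12878, the pathway genes with a call to 34 and 17, and the share of calls in a 25-kb Hi-C pair rose to 50.0% (6 of 12). The share over all calls at that score is not given here, so this rise has no background beside it. With at least 10 reads, the median distance in mESCs was 68.6 kb. With every listed Hi-C pair, whatever its FDR, the share was 32.7% (17 of 52), near the 29.9% of all mESC calls under 1 Mb at that setting. At an FDR under 0.05 and without the calls of *Fgf5*, left out after seeing the data, the share was 5.26%. Of 70 alternatives for single genes, 15 moved the count by more than 1.5 times. At a score of at least 10, *Nodal*, *Tdgf1*, *Bmp4*, *Id2* and *Fgf4* had 0 mESC calls, *Id1* and *Lefty2* 1, *Lefty1* 5 and *Fgf5* 6. No paired analysis was possible because the replicates of each cell type were merged into a single set of calls. Leaving out a replicate was not possible for the same reason. The lists hold calls alone, so a pair that was measured and not called cannot be told apart from one that was not captured, and calls on 4 to 6 reads are the least precise.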
